A study of Mus musculus with 16 samples.

Results

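The acute phase response is the release of secreted defence proteins that follows injury, infection or inflammatory cytokines. The genes followed here are 8 of its components: the transcription factors Cebpd and Cebpb, the secreted proteins C3, Hp, Lcn2 and Saa3, the phospholipase Pla2g5 and the feedback inhibitor Socs3. They were picked by name with results of these data in view, and every probe that carries one of the names was used, which gave 10 probes. The array names 27674 genes, of which 18995 were tested because, for the sample's own dye, some probe of theirs exceeded background clearly on the A and the B array of 1 or more groups. All 8 genes passed that filter. The choice drew on their levels in every group and in every comparison described here, so their values are given as a description with no test.

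The cells were 4TO7, a mouse mammary carcinoma line, grown as sublines in DMEM with 10% FBS and antibiotics. Of the 8 groups, 4 overexpressed something: the miRNA groups named Cluster 1, Cluster 2 and Clusters 1+2, and CDH1, which is E-cadherin. Each had its own vector control: the Puro vector (pMSCV puro) for Cluster 1, the Hygro vector (pMSCV hygro) for Cluster 2, Hygro and Puro vectors together for Clusters 1+2, and for CDH1 another Puro line. Each group had 2 repeats, A and B, so the series has 16 arrays. On every array 175 ng of total RNA per labelling was set against Universal Mouse Reference RNA, made from 11 cell lines, and values are log2 ratios of sample over reference. The sample carried Cy3 in Cluster 2, Clusters 1+2 and their vectors, and Cy5 in Cluster 1, CDH1 and their vectors. Ratios are therefore compared only within a dye. The labels call the Cluster 1 and CDH1 lines stable, and the series calls the repeats biological, but the sources used here do not give whether each repeat was a separate infection. The spread between repeats may thus leave out differences between independently made lines. In RNA from a whole culture, fewer cells expressing a gene and less RNA per cell cannot be told apart.

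In the liver and in many epithelia, interleukin 6 and related cytokines signal through the shared receptor subunit gp130, encoded by Il6st, to the transcription factor STAT3. STAT3 induces Cebpd and, with C/EBP-beta, C/EBP-delta and NF-kB, the genes of the acute phase proteins. It also induces Socs3, whose product binds gp130 and shuts the signal down. C/EBP-beta and C/EBP-delta are known in the mammary gland for roles in its development and in involution after lactation.

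The series is titled for miR-200, a family of miRNAs that repress the E-cadherin repressors Zeb1 and Zeb2. Its members are encoded at 2 loci and carry 1 of 2 seeds. The mature mouse sequences, from RefSeq on GRCm38.p6, are shown because they are what a miR-200 construct would deliver. The sources used here do not give which of them a Cluster label stands for. Capitals mark the seed, bases 2 to 8, which pairs with targets. The seed AAUACUG is shared by miR-200b, miR-200c and miR-429, and the seed AACACUG by miR-200a and miR-141.
miR-200b-3p: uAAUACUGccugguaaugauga
miR-200c-3p: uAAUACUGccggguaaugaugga
miR-429-3p: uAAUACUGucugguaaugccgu
miR-200a-3p: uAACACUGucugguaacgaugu
miR-141-3p: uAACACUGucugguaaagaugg

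Positions of the probes follow the array design on mm7. Cebpd has 1 probe at chr16:15431723-15431782 on the plus strand. Cebpb has 2 on the plus strand, the brighter at chr2:167483001-167483059 and the other at chr2:167482463-167482522. On the minus strand lie the probes of Hp (chr8:108175404-108175463), Lcn2 (chr2:32392828-32393072), Pla2g5 (chr4:138177891-138177950) and Socs3 (chr11:118075211-118075270). The Lcn2 probe spans 245 bases of the genome for 60 bases of sequence. C3 and Saa3 are also on the minus strand. Their probes are printed because those of C3 gave different results below and that of Saa3 may also read another gene. The bright C3 probe lies at chr17:55414567-55414626 and is spotted 10 times on each array, and the dim C3 probe spans 158 bases at chr17:55435522-55435679. The Saa3 probe lies at chr7:42888862-42888921, and the deposited annotation also lists a transcript of Saa1 for it, so Saa3 values may include Saa1.
C3, bright probe: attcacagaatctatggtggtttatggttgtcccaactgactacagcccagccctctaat
C3, dim probe: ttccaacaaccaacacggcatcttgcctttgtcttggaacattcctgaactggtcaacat
Saa3: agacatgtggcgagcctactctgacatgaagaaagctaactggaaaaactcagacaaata

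C/EBP, STAT and NF-kB proteins bind short DNA words, and RefSeq promoters on GRCm38.p6 were available for 6 of the 8 genes. The words were chosen after these promoters had been seen: TTGCNNAA for C/EBP, TTCNNNGAA for STAT and, for NF-kB, GGG and TTTCC with 2 free bases between them, each on both strands. Over 32851 promoters of the same 300 bases, the C/EBP word occurred in 10.8%, the STAT word in 8.3% and the NF-kB word in 1.63%. The C/EBP word occurred in Lcn2 (TTGCTCAA, at -216 to -209 from the start site), in Saa3 (TTATGCAA, -99 to -92) and in C3 (TTGCGAAA, -45 to -38). The STAT word occurred in Socs3 (TTCTTAGAA, -154 to -146). Neither Cebpb nor the 2 listed starts of Pla2g5 held any of these words. The 250 bases before the start site are shown for the 4 genes with a match, on the gene's strand, with the match in capitals. All 4 lie on the minus strand, at chr2:32387740-32387989 for Lcn2, chr7:46715677-46715926 for Saa3, chr17:57228137-57228386 for C3 and chr11:117969367-117969616 for Socs3. A match describes letters and was not tested as a binding site.
Lcn2: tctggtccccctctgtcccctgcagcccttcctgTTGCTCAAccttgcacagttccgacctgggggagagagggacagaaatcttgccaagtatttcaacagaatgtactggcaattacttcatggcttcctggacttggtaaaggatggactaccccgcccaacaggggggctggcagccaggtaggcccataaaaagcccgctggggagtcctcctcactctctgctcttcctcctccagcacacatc
Saa3: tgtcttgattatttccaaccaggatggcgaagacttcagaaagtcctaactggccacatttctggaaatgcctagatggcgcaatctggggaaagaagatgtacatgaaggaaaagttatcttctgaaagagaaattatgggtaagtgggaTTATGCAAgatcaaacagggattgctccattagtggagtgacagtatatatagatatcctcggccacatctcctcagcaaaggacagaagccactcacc
C3: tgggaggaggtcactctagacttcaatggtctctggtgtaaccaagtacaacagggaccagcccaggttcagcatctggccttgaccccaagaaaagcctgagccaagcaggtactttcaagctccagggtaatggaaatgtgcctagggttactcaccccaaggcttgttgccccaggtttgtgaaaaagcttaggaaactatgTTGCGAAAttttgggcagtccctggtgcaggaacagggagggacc
Socs3: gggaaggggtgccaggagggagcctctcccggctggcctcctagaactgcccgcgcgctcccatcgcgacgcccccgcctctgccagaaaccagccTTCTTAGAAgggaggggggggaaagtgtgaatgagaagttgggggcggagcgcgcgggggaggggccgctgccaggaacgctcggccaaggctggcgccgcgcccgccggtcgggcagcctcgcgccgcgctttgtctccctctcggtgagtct

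Arrays differed in quality, which touches the dimmer genes. Probes well above background in the sample channel numbered from 12560 to 28417 per array, fewest on repeat B of the Puro vector for CDH1. All Cy3 arrays of repeat A lay on slide 1 and all those of repeat B on slide 2, while CDH1 and its vector shared slide 3 and Cluster 1 and its vector shared slide 4. Of 5 keratin genes listed for epithelium, Krt8 and Krt18 were above background on both arrays of all 8 groups. In the Puro vector for CDH1, 3 of the 5 were. Krt8 was higher than in the vector by 0.81 in Cluster 1, where only vector replicate A was usable. It was higher by 0.65 in Cluster 2 and by 0.85 in Clusters 1+2. Krt18 was higher by 1.26, 1.04 and 1.56 in that order. In CDH1, Krt8 differed by -0.55 (limma adjusted p = 0.00326), a call that held under 13 of 16 alternatives. Krt18 differed there by -0.24 (limma adjusted p = 0.0729). The median over the 5 keratins was 0.0042 in CDH1, and Krt8 was the only one called. Cdh1, the gene introduced in CDH1 cells, was above background on both of their arrays and on neither array of their vector, so only a bound can be given there. From the sample channel alone, that bound was 1.62-fold higher in CDH1 cells. Dyes were not swapped, though both of these groups carried Cy5. The ratio gave a smaller difference, 0.61 or 1.53-fold (limma adjusted p = 0.00569), so the bound holds for the sample channel only. The ratio ran from 0.51 to 2.44 over the alternatives. That call ended with outlier-marked spots kept (0.56, adjusted p = 0.439) and without CDH1 replicate B (0.51, adjusted p = 0.0696). Against their own vectors, Cdh1 was higher by 1.21 in Cluster 1 (adjusted p = 9.49e-05), by 1.93 in Cluster 2 (adjusted p = 2.88e-06) and by 2.86 in Clusters 1+2 (adjusted p = 8.76e-09). The Cluster 1 call ended with outlier-marked spots kept (0.83, adjusted p = 0.583). Whether the probe reads the introduced sequence was not tested. Of the 8 genes, Hp was below the background limit on 2 arrays (Hygro vector B and Clusters 1+2 B) and Saa3 on 2 (Hygro vector B and Cluster 2 B). No gene was below it on both arrays of a group.

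**Figure D1:**
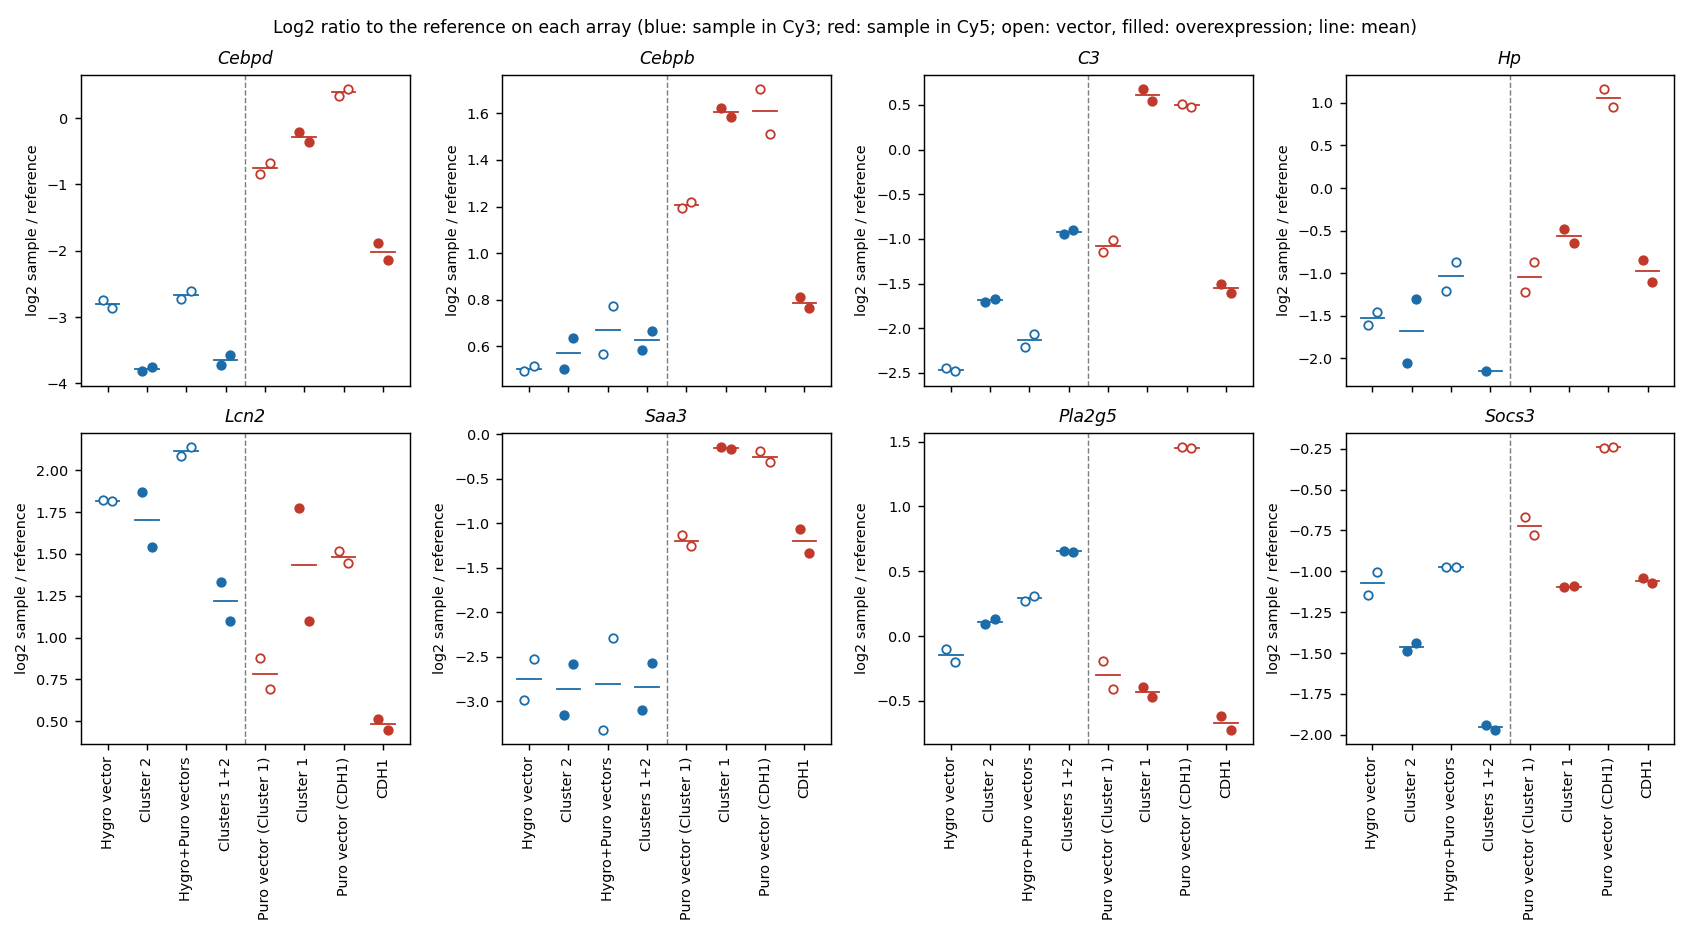
Log2 ratio of sample over reference (y axis) for each of the 8 genes on each array, by group (x axis). Blue points are samples in Cy3 and red points samples in Cy5, open points are vector groups, filled points overexpression groups, and lines are means of the 2 repeats (1 for Hp in Clusters 1+2). In all 8 panels both CDH1 points lie below both points of their Puro vector, while the groups in Cy3 keep different orders from gene to gene.

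Cebpd, which encodes C/EBP-delta, had its highest Cy5 level in the Puro vector for CDH1 and its lowest in CDH1 cells. Its log2 ratio was 0.34 and 0.45 in that vector and -1.89 and -2.14 in CDH1. It was -0.84 and -0.68 with the Puro vector of Cluster 1, and Cluster 1 itself had -0.21 and -0.36. The order in Cy5 was thus the Puro vector for CDH1, Cluster 1, the Puro vector for Cluster 1 and CDH1, with no overlap between neighbours.

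Among the Cy3 groups Cebpd was -2.74 and -2.86 with the Hygro vector and -3.82 and -3.76 in Cluster 2. With both vectors it was -2.73 and -2.60, and in Clusters 1+2 -3.72 and -3.58. Both miRNA groups therefore lay below both vector groups, and the 2 vector groups were separated by only 0.01 at their nearest arrays. The differences were -0.99 in Cluster 2, -0.98 in Clusters 1+2, 0.47 in Cluster 1 and -2.40 in CDH1, each with SE 0.102. In CDH1 this was 5.29-fold lower and ranked 2 among all falls, and in Cluster 2 it ranked 12.

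Cebpb, which encodes C/EBP-beta, differed less between groups than Cebpd. On the bright probe it was 1.71 and 1.51 in the Puro vector for CDH1 and 0.81 and 0.76 in CDH1, a difference of -0.82 (SE 0.0865). It was 1.19 and 1.22 in the Puro vector for Cluster 1 and 1.62 and 1.59 in Cluster 1, a difference of 0.40. Cluster 1 and the Puro vector for CDH1 overlapped, and the other neighbours in Cy5 did not.

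The 4 Cy3 groups of Cebpb all overlapped with their neighbours. The bright probe ran there from 0.49 to 0.77 over the 8 arrays, with differences of 0.07 in Cluster 2 and -0.05 in Clusters 1+2. The other Cebpb probe gave -0.84 in CDH1, 0.69 in Cluster 1, 0.07 in Cluster 2 and 0.00 in Clusters 1+2 (SE 0.0886), so both probes had the same direction in CDH1 and in Cluster 1.

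C3, the central component of complement that all its activation routes cleave, was the only gene of the 8 whose groups lay apart from their controls upward in all 3 miRNA comparisons. Its bright probe gave -1.14 and -1.01 in the Puro vector for Cluster 1 and 0.68 and 0.54 in Cluster 1. It gave 0.52 and 0.47 in the Puro vector for CDH1 and -1.51 and -1.60 in CDH1. The 2 Puro vector groups thus lay apart from each other, with Cluster 1 and the vector for CDH1 high and the other Cy5 groups low.

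In Cy3, C3 was -2.45 and -2.48 with the Hygro vector, -2.21 and -2.07 with both vectors, -1.71 and -1.67 in Cluster 2 and -0.94 and -0.90 in Clusters 1+2. These 4 groups did not overlap, and the order ran upward as listed. The differences were 1.69 in Cluster 1, 0.78 in Cluster 2, 1.22 in Clusters 1+2 and -2.05 in CDH1, each with SE 0.0779. As folds these are 3.23-fold, 1.72-fold and 2.32-fold higher, and 4.14-fold lower.

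The replicate spots of the bright C3 probe give a measure of its technical error. Of 10 spots, 9 or 10 were usable on every array, and their SD within an array ran from 0.0223 to 0.0829. In CDH1 replicate A they ran from -1.66 to -1.36, and in the Puro vector for CDH1 replicate A from 0.46 to 0.58. The dim C3 probe did not follow: it gave 0.14 in Cluster 1, -0.32 in Cluster 2, 0.23 in Clusters 1+2 and 0.09 in CDH1 (SE 0.132). It was above background on 12 of 16 arrays, and why the 2 probes differ was not tested.

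Hp encodes haptoglobin, which binds free haemoglobin. It was 1.17 and 0.96 in the Puro vector for CDH1 and -0.85 and -1.10 in CDH1, a difference of -2.04 (SE 0.215), 4.11-fold lower. It was -1.23 and -0.87 with the Puro vector of Cluster 1, whereas Cluster 1 had -0.48 and -0.65, a difference of 0.49. CDH1 and the Puro vector for Cluster 1 overlapped, so the Puro vector for CDH1 stood alone at the top of the Cy5 groups.

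In Cy3, Hp was -1.61 and -1.46 with the Hygro vector and -2.06 and -1.30 in Cluster 2, which overlapped. It was -1.21 and -0.87 with both vectors and -2.16 on the only usable array of Clusters 1+2, A, because the spot on B was marked as an outlier. That difference, -1.12 (SE 0.264), rests on 1 array of Clusters 1+2 and takes its error from the other groups.

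Lcn2 encodes lipocalin 2, which withholds iron from bacteria by binding their siderophores. It was 1.52 and 1.44 in the Puro vector for CDH1 and 0.51 and 0.45 in CDH1, a difference of -1.002 (SE 0.173). Cluster 1 had the widest repeats, 1.77 and 1.10, against 0.88 and 0.69 in its vector, a difference of 0.65. Cluster 1 overlapped with the Puro vector for CDH1 but not with its own. That difference was 0.31 without Cluster 1 replicate A, 0.99 without Cluster 1 replicate B and 0.09 with the scanner software's processed signals.

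In Cy3, Lcn2 was 2.09 and 2.14 with both vectors and 1.33 and 1.10 in Clusters 1+2, a difference of -0.90. With the Hygro vector it was 1.82 and 1.81, and in Cluster 2 1.87 and 1.54, which overlapped. Clusters 1+2 was thus the lowest of the 4 Cy3 groups, apart from the rest.

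Saa3 encodes a serum amyloid A protein made outside the liver. It was -0.14 and -0.17 in Cluster 1 and -1.13 and -1.26 in the Puro vector for Cluster 1, a difference of 1.04 (SE 0.289). It was -0.19 and -0.31 in the Puro vector for CDH1 and -1.06 and -1.33 in CDH1, a difference of -0.94. The 2 lower groups, CDH1 and the Puro vector for Cluster 1, overlapped.

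In Cy3, Saa3 ran from -3.32 to -2.29 and all 4 groups overlapped. Its signal in the sample channel was low there, 5.97 to 6.67 (log2). The lowest signal among probes above background was 5.30 to 6.34 on these arrays, so a difference may go unseen. The repeats there differed by slide, with repeat B on slide 2 above repeat A on slide 1 in all 4 groups. The differences were -0.11 in Cluster 2 and -0.03 in Clusters 1+2. With the scanner software's processed signals the CDH1 difference was -2.08 and the Cluster 1 difference 2.62. Neither was past the genome-wide threshold (an adjusted p under 0.05) once any 1 of its 4 arrays was left out.

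Pla2g5 encodes a secreted phospholipase A2 that frees fatty acids for prostanoid synthesis. Its 2 arrays of the Puro vector for CDH1, at 1.46 and 1.45, stood far above the rest of the Cy5 groups. CDH1 was at -0.62 and -0.72, Cluster 1 at -0.39 and -0.47 and the Puro vector for Cluster 1 at -0.19 and -0.41. The difference was -2.12 in CDH1 (SE 0.0787, 4.36-fold lower) and -0.13 in Cluster 1, whose arrays overlapped with those of its vector.

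In Cy3 the 4 groups of Pla2g5 lay apart. It was -0.10 and -0.20 with the Hygro vector, 0.09 and 0.13 in Cluster 2, 0.27 and 0.31 with both vectors and 0.66 and 0.65 in Clusters 1+2. The differences were 0.26 in Cluster 2 and 0.36 in Clusters 1+2, so Pla2g5 and C3 shared the same order of means only in their highest and lowest Cy3 groups.

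Socs3 was lower in all 4 overexpression groups than in their vectors. It was -0.25 and -0.24 in the Puro vector for CDH1 and -1.04 and -1.07 in CDH1, a difference of -0.82 (SE 0.0674). It was -0.67 and -0.78 with the Puro vector of Cluster 1, whereas Cluster 1 had -1.10 and -1.09, a difference of -0.37. CDH1 and Cluster 1 were separated by 0.02 at their nearest arrays.

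In Cy3, Socs3 was -0.97 on both arrays with both vectors and -1.94 and -1.97 in Clusters 1+2, a difference of -0.98. It was -1.14 and -1.002 with the Hygro vector and -1.49 and -1.44 in Cluster 2, a difference of -0.39. The 4 groups did not overlap, though the 2 vector groups were separated by only 0.03. The Cluster 2 difference was past that threshold under 9 of 15 alternatives. It was not with median centring in place of loess (-0.09), outlier-marked spots kept (-0.43), scaled spread (-0.26), the sample channel alone (-0.28), a fit of its 4 arrays (-0.39) or without Hygro vector replicate B (-0.32).

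**Figure D2:**
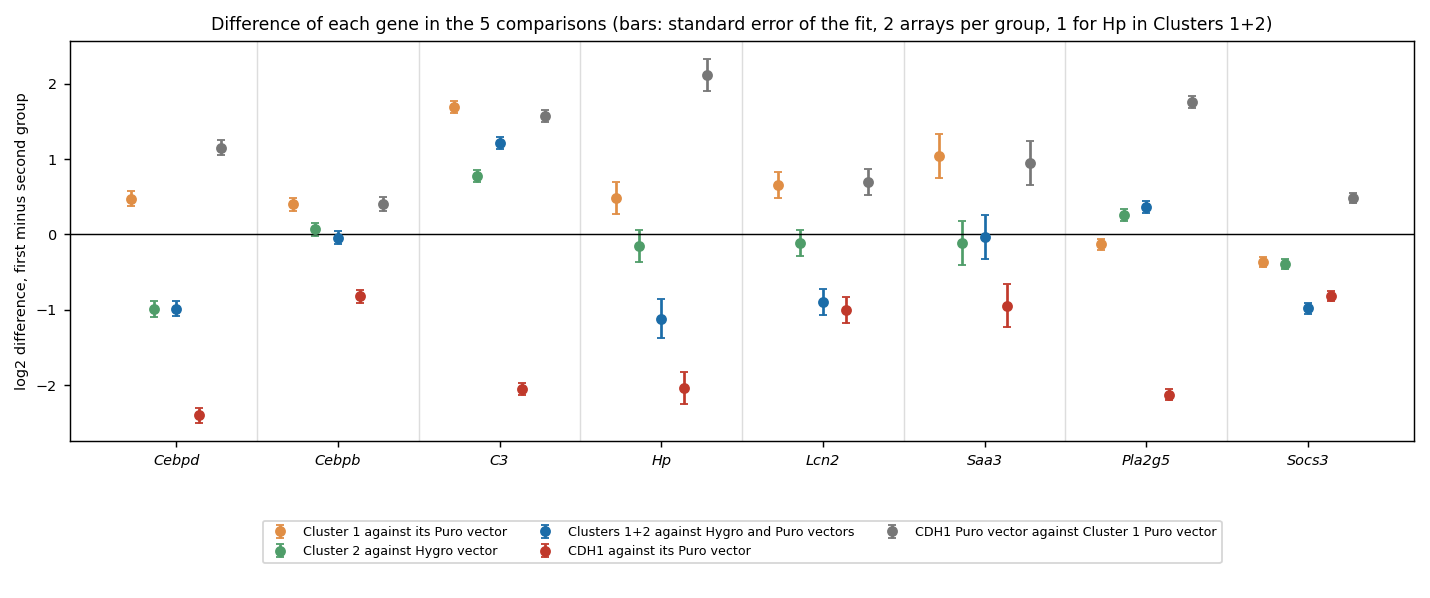
Log2 difference between groups (y axis) for each of the 8 genes (x axis) in 5 comparisons, shown by colour, with the standard error of the fit as bars. The CDH1 comparison is below 0 for all 8 genes, from -2.40 to -0.82, and the comparison of the 2 Puro vectors is above 0 for all 8, from 0.40 to 2.11.

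Counted over the 8 genes, the comparisons differed in direction. The shares of all genes past the genome-wide threshold stand beside the counts; since the choice of genes used these contrasts, nothing is read from the counts. In CDH1, 8 of 8 were lower and past the threshold and their groups did not overlap, beside 14.5% of all genes in either direction, 7.62% higher and 6.87% lower. Their median difference was -1.52, beside 0.0051 over all genes. Without any 1 of its 4 arrays, 7 of the 8 remained past the threshold. Keeping the spots that the scanner software marked as outliers left 5 lower.

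In Cluster 1, 5 were higher and 1 lower, beside 8.22% of all genes in either direction, 4.85% higher and 3.37% lower. The 5 were Cebpd, Cebpb, C3, Lcn2 and Saa3, and the 1 was Socs3. The median difference was 0.48. These counts rest on single arrays: the higher count was 1 without Cluster 1 replicate A or without the Puro vector replicate A, 3 without Cluster 1 replicate B and 2 without the Puro vector replicate B. In those fits the lone array of a group is assumed to vary as the other groups do. With outlier-marked spots kept, 1 was higher and 0 lower.

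In Cluster 2, 1 was higher (C3) and 2 lower (Cebpd and Socs3), beside 2.75% of all genes in either direction, 1.71% higher and 1.04% lower. The median difference was -0.11, and it became positive under median centring, at 0.07. With scaled spread 0 were higher and 0 lower, and with means over probes 0 were higher and 2 lower. Without Hygro vector replicate B, 1 was lower, and with outlier-marked spots kept 1 was higher and 1 lower. In Clusters 1+2, 2 were higher (C3 and Pla2g5) and 4 lower (Cebpd, Hp, Lcn2 and Socs3), beside 24.8% of all genes in either direction, 12.0% higher and 12.8% lower. The median difference was -0.47, and -0.0042 without Clusters 1+2 replicate A, which also removes the only Hp value of that group. With outlier-marked spots kept, 1 was higher and 2 lower there.

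Within slides, the Cy3 differences could be read separately for each repeat. Cebpd gave -1.08 on slide 1 and -0.90 on slide 2 in Cluster 2, and -0.99 and -0.97 in Clusters 1+2. C3 gave 0.74 and 0.82 in Cluster 2, and 1.26 and 1.17 in Clusters 1+2. Socs3 gave -0.34 and -0.44 in Cluster 2, and -0.97 and -0.998 in Clusters 1+2. These differences had the same sign on both slides. Sign changed between slides for Hp in Cluster 2 (-0.46 and 0.16), Lcn2 in Cluster 2 (0.04 and -0.28), Saa3 in Clusters 1+2 (0.22 and -0.28) and Cebpb in Clusters 1+2 (0.01 and -0.11).

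Both Puro controls are labelled as cells with the pMSCV puro vector, and all 8 genes were higher in the one made for CDH1. The differences were 2.11 for Hp, 1.75 for Pla2g5, 1.57 for C3, 1.15 for Cebpd, 0.95 for Saa3, 0.70 for Lcn2, 0.48 for Socs3 and 0.40 for Cebpb. The arrays did not overlap for any of the 8, and 7 passed the threshold, all but Saa3, beside 10.0% of all genes in either direction and 5.18% higher. With outlier-marked spots kept, 3 passed. Hp ranked 2, Pla2g5 7 and C3 19 among all genes higher in that vector. The vectors lay on different slides, so line and slide cannot be told apart.

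Because the CDH1 and Puro comparisons share the arrays of 1 vector, they are not independent, and the values against the other vector are set beside them. This was added for CDH1 after the data had been seen. Against the Puro vector for Cluster 1, CDH1 cells differed by -1.25 for Cebpd, -0.48 for C3, -0.42 for Cebpb, -0.37 for Pla2g5, -0.33 for Socs3 and -0.30 for Lcn2. For Saa3 the difference was 0.00 and for Hp 0.07. Of the 8, 5 were past the threshold and lower, all but Hp, Saa3 and Lcn2, beside 2.41% of all genes in either direction and 1.15% lower. Cebpd also ranked 2 among all falls there. That comparison reuses the CDH1 arrays of the one against their own vector, and it sets slide 3 against slide 4.

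Cluster 1 cells against the Puro vector for CDH1 gave another picture. C3 (0.12), Saa3 (0.10), Cebpb (-0.0045) and Lcn2 (-0.05) were near 0 and not past the threshold. Pla2g5 (-1.89), Hp (-1.63), Socs3 (-0.85) and Cebpd (-0.68) were lower and past it, 4 of 8 beside 8.58% of all genes in either direction, 4.76% higher and 3.82% lower. Of the genes higher in Cluster 1 against its own vector, none of the 5 was higher past the threshold against the other, and Cebpd, Cebpb and Lcn2 had the opposite sign there. Socs3 was lower against both.

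The reference channel also bears on values across slides. From the sample channel alone, Cebpb in CDH1 against the Puro vector for Cluster 1 was 0.71, opposite to the -0.42 of the ratio, and Hp was -1.87 where the ratio gave 0.07. Within a slide the channels gave the same sign for all 8 genes in CDH1 against its own vector, with Cebpb at -0.51 and Hp at -3.17. For Cluster 1 against the Puro vector for CDH1 the channel gave -1.04 for Cebpb, 0.43 for C3, 0.46 for Lcn2, -0.28 for Saa3 and -0.29 for Hp, where the ratio gave -1.63.

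**Figure D3:**
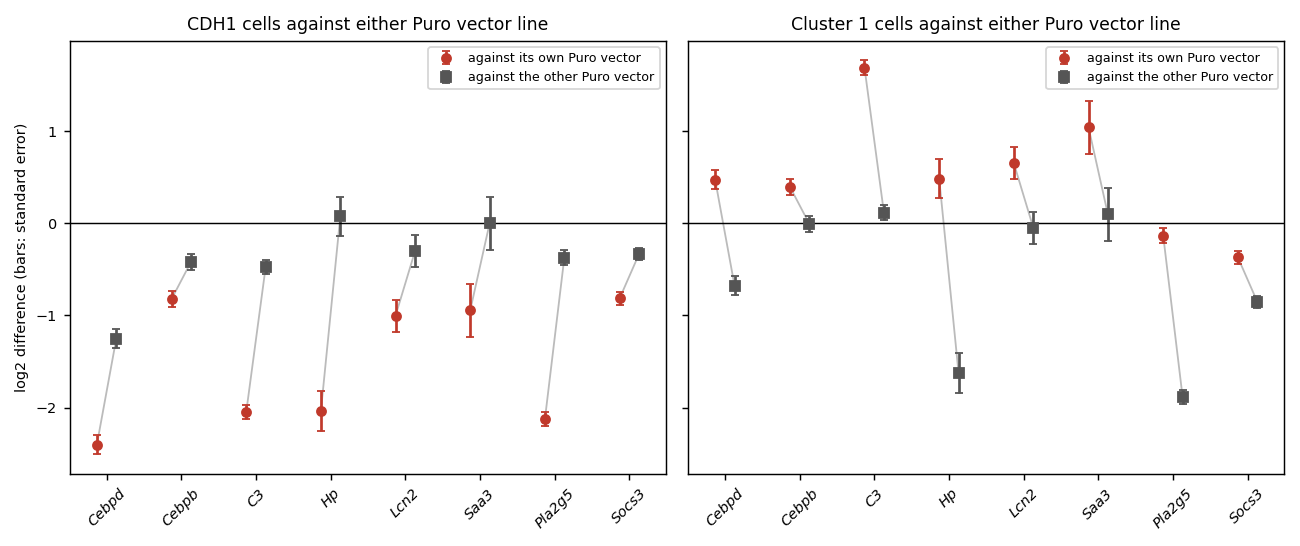
Log2 difference (y axis, bars are standard errors) of the 8 genes (x axis) in CDH1 cells (left) and Cluster 1 cells (right), against their own Puro vector (circles) and against the Puro vector of the other line (squares). In CDH1 cells Cebpd stays at -1.25 against the other vector while Hp and Saa3 are at 0.07 and 0.00, and in Cluster 1 cells C3 goes from 1.69 to 0.12.

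The other genes of the pathway can be tested, and 137 were listed by function, of which 112 were tested. The lists were drawn up with earlier results of these data known. Adjusted p-values are from limma over all genes, and each named gene that passed had both arrays of one group beyond both of the other. Over all lists, 27 genes passed in Cluster 1 (20 higher, 7 lower, 24.1% of those tested), 7 of 111 in Cluster 2 (6.31%), 45 in Clusters 1+2 (19 higher, 26 lower, 40.2%), 34 in CDH1 (9 higher, 25 lower, 30.4%) and 26 between the Puro vectors (21 higher in the vector for CDH1, 5 lower, 23.2%). Over all genes the shares were 8.22%, 2.75%, 24.8%, 14.5% and 10.0% in that order, and the counts of each list below stand beside the same shares. Single arrays moved some of these counts. Cluster 1 gave 17 without Cluster 1 replicate A, and CDH1 gave 20 without CDH1 replicate B. Cluster 2 gave 3 without Hygro vector replicate B and 4 without Cluster 2 replicate B, and 11 with slide as a block. The Puro vectors gave 17 without CDH1 Puro vector replicate B, and 17 and 15 without replicates A and B of the Puro vector for Cluster 1. The split by direction also depended on centring: with median centring CDH1 had 18 higher and 16 lower, Cluster 2 had 22 higher and 1 lower, Clusters 1+2 had 13 higher and 26 lower, and the Puro vectors 16 and 8. That centring moved the median of all genes to 0.135 in Cluster 2 and 0.105 in CDH1. Keeping the spots that the scanner software marked as outliers left fewer calls: 7 in Cluster 1, 2 in Cluster 2, 24 in Clusters 1+2, 16 in CDH1 and 3 between the Puro vectors.

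Some genes upstream of the C/EBP genes fell in CDH1. Of 17 tested genes of IL-6 family signalling, 6 fell and 1 rose. Osmr, the oncostatin M receptor, fell by 0.92 (SE 0.0948, adjusted p = 4.34e-05), Il6st by 0.73 (SE 0.0867, adjusted p = 0.00013) and Stat3 by 0.63 (SE 0.0694, adjusted p = 7.15e-05). Il11, a cytokine that also signals through gp130, rose by 1.11 (adjusted p = 2.25e-06). Il6ra, the IL-6 receptor, differed by -0.03 (adjusted p = 0.943). Il6 itself was not tested, since its probe did not pass the filter.

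Against the Puro vector for Cluster 1, Il6st in CDH1 cells differed by -0.05 (adjusted p = 0.899) and Il11 by 0.13 (adjusted p = 0.525), while Stat3 still fell, by 0.29, and Osmr was -0.47 (adjusted p = 0.0226). The Osmr call against its own vector ended with outlier-marked spots kept (-1.48, adjusted p = 0.117). The vectors themselves differed: in the one for CDH1, Il6st was higher by 0.68 (adjusted p = 0.000322), Stat3 by 0.34 (adjusted p = 0.00817) and Il11 lower, at -0.98 (adjusted p = 8.82e-06). The Stat3 call between vectors ended without CDH1 Puro vector replicate B, at 0.29 (adjusted p = 0.0718), and without replicate A of the Puro vector for Cluster 1, at 0.32 (adjusted p = 0.0601).

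In Cluster 1, 4 of the 17 rose and 1 fell. Jak2, the kinase that phosphorylates STAT proteins, rose by 0.97 (SE 0.0747, adjusted p = 7.79e-06), Stat3 by 0.39 (adjusted p = 0.00388), and Il11 fell by 1.26 (adjusted p = 1.18e-06). Against the Puro vector for CDH1, Stat3 was 0.06 (adjusted p = 0.772) and Il11 -0.28 (adjusted p = 0.0425). The Stat3 call also ended with outlier-marked spots kept (0.35, adjusted p = 0.0866). In Clusters 1+2, 2 rose and 5 fell, with Il11 the largest fall at -1.84 (SE 0.0772, adjusted p = 6.34e-09). In Cluster 2, Jak2 was the 1 gene that rose, by 0.38 (adjusted p = 0.0148), and its call ended without Hygro vector replicate B (0.35, adjusted p = 0.141), without Cluster 2 replicate A (0.35, adjusted p = 0.0771) and without Cluster 2 replicate B (0.41, adjusted p = 0.0577).

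Few other members of the C/EBP family passed the test. Of 4 tested C/EBP genes, 1 passed in CDH1 and 1 in Clusters 1+2, in both cases Ddit3, which encodes the stress factor CHOP. None passed with limma in Cluster 1, in Cluster 2 or between the Puro vectors, where 0, 0 and 2 had an unadjusted p under 0.05. It fell by 0.43 in Clusters 1+2 (adjusted p = 0.00563) and by 0.33 in CDH1 (adjusted p = 0.039). The CDH1 call ended without 3 of its arrays: at -0.15 (adjusted p = 0.332) without Puro vector replicate B, -0.35 (adjusted p = 0.11) without CDH1 replicate A and -0.31 (adjusted p = 0.179) without CDH1 replicate B. The Clusters 1+2 call ended without Clusters 1+2 replicate A (-0.36, adjusted p = 0.0586). Cebpa differed by 0.06 in CDH1 (adjusted p = 0.805) and Cebpg by 0.20 (adjusted p = 0.242).

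Among 7 tested SOCS genes, 1 rose and 1 fell in Cluster 1. Socs2, a regulator of growth hormone signalling, rose by 0.98 (SE 0.0743, adjusted p = 7.42e-06), and Socs1, an inhibitor of JAK kinases, fell by 0.69 (SE 0.0764, adjusted p = 0.00023). Against the other vector Socs1 was -0.30 (adjusted p = 0.0305), and with outlier-marked spots kept Socs2 was 0.63 (adjusted p = 0.204). In Clusters 1+2, 2 rose and 2 fell, and in CDH1 1 rose. In Cluster 2 none passed with limma, and 2 had an unadjusted p under 0.05.

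Acute phase genes outside the 8 were called in both directions. Of 19 tested acute phase genes, 4 rose and 2 fell in Cluster 1, 5 fell and 1 rose in CDH1, and 5 fell and 2 rose in Clusters 1+2. Cd14, the lipopolysaccharide co-receptor, rose by 1.38 in Cluster 1 (SE 0.0752, adjusted p = 1.18e-06) and fell by 0.97 in CDH1 (adjusted p = 8.12e-06). It was -0.12 and 0.07 in the Puro vector for CDH1 and -0.98 and -0.91 in the Puro vector for Cluster 1, so it was also higher in the former, by 0.92 (adjusted p = 2.02e-05). Against the other vector Cd14 still rose in Cluster 1, by 0.46, and differed by -0.05 in CDH1 (adjusted p = 0.876).

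Lbp, the lipopolysaccharide binding protein, rose by 0.92 in Cluster 1 (SE 0.114, adjusted p = 0.000337). It was 0.60 against the other vector (adjusted p = 0.00553) and 0.55 with outlier-marked spots kept (adjusted p = 0.543). The metallothionein genes Mt1 and Mt2 fell in Clusters 1+2, by 1.12 (adjusted p = 6.09e-07) and 1.62 (adjusted p = 1.21e-07). Mt1 also fell in Cluster 1, by 0.58 (adjusted p = 8e-04), and rose in CDH1, by 0.37 (adjusted p = 0.00862). Saa1, the paralog whose transcript the Saa3 probe may also read, was measured by its own probe and did not pass in CDH1 (-0.38, adjusted p = 0.077) or in Cluster 1 (0.31, adjusted p = 0.213). Saa2, another paralog, passed in CDH1 (-0.40, limma adjusted p = 0.0344), with 1 array above background in each group. That call held under 9 of 16 alternatives, with values from -1.52 to -0.02. In Cluster 1, Saa2 did not pass (0.20, limma adjusted p = 0.384).

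Of 18 tested complement genes, Cluster 1 had 4 that rose and 0 that fell with limma, and CDH1 had 4 that fell and 0 that rose. The calls of C1s1 ended when outlier-marked spots were kept. C1s1, a protease of the classical pathway, rose by 1.02 in Cluster 1 (SE 0.155, adjusted p = 0.0014) and by 0.90 in Clusters 1+2 (adjusted p = 0.000875), and fell by 0.92 in CDH1 (adjusted p = 0.00144). Against the other Puro vector it was 0.30 in Cluster 1 (adjusted p = 0.318) and -0.20 in CDH1 (adjusted p = 0.648). In Cluster 2 none passed with limma, and 4 had an unadjusted p under 0.05.

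Of 23 tested NF-kB genes, 8 rose and 7 fell in Clusters 1+2, which is 65.2% beside 24.8% of all genes. Relb, an NF-kB subunit, rose by 0.64 (SE 0.0685, adjusted p = 1.89e-05), and Nfkbiz, a nuclear co-factor needed for Lcn2 induction, fell by 0.84 (SE 0.0844, adjusted p = 1.04e-05). Nfkbiz also fell in Cluster 2, by 0.60 (adjusted p = 0.00161), where Lcn2 overlapped with its vector. That call ended with median centring (-0.36, adjusted p = 0.0581), processed signals (-0.61, adjusted p = 0.173), scaled spread (-0.44, adjusted p = 0.284), the sample channel alone (-0.65, adjusted p = 0.204) and a fit of its 4 arrays (adjusted p = 0.0827). Nfkbiz did not pass in CDH1 (-0.16, adjusted p = 0.279) or in Cluster 1 (0.18, adjusted p = 0.28), where Lcn2 differed by -1.002 and 0.65. In CDH1, 5 fell and 3 rose. The subunit genes Nfkb2 and Rela rose, by 0.42 (limma adjusted p = 0.0114) and 0.41 (limma adjusted p = 0.0478). These calls held under 11 and 6 of 16 alternatives. Bcl3, another nuclear co-factor, fell by 0.86 (SE 0.071, adjusted p = 1.32e-05). Nfkbia, the inhibitor that NF-kB itself induces, fell by 0.53 (adjusted p = 0.00432), a call that ended without CDH1 replicate B (-0.45, adjusted p = 0.0537), with median centring (-0.32, adjusted p = 0.0935) and against the other vector (-0.28, adjusted p = 0.214).

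Around Pla2g5, genes of phospholipase and prostanoid synthesis were called in both directions. Ptgs2, the inducible cyclooxygenase, rose in Cluster 2 by 0.80 (SE 0.076, adjusted p = 6.37e-05), in Clusters 1+2 by 1.49 (adjusted p = 2.92e-08) and in CDH1 by 0.46 (adjusted p = 0.00141). Ptges, which makes prostaglandin E, fell in CDH1 by 0.85 (adjusted p = 6.53e-05) and was higher by 0.75 in the Puro vector for CDH1 than in the other (adjusted p = 0.000252). Against the other vector Ptges in CDH1 was -0.10 (adjusted p = 0.74), and with outlier-marked spots kept -0.29 (adjusted p = 0.656). The Ptgs2 call in Cluster 2 ended with an offset of 10 (0.77, adjusted p = 0.134) and with processed signals (0.72, adjusted p = 0.611), and that in CDH1 with processed signals (0.90, adjusted p = 0.111). Of the 15 tested genes, 2 rose and 3 fell in CDH1, which is 33.3% beside 14.5% of all genes. In Clusters 1+2, 2 rose and 2 fell, 26.7% beside 24.8%.

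Among genes of iron and haem handling, the transferrin receptor Tfrc rose in CDH1 by 1.02 (SE 0.0898, adjusted p = 1.16e-05), and by 0.42 against the other vector (adjusted p = 0.0303). Bdh2, an enzyme linked to mammalian siderophore synthesis, fell in Cluster 2 by 0.81 (adjusted p = 0.000326; -0.77 and 0.361 with outlier-marked spots kept) and in Clusters 1+2 by 1.47 (SE 0.094, adjusted p = 1.98e-07). Fth1, the ferritin heavy chain, fell in Clusters 1+2 by 0.96 (adjusted p = 9.16e-06). Of 9 tested, 1 rose and 2 fell in Clusters 1+2, and 1 rose and 1 fell in CDH1.

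**Figure D4:**
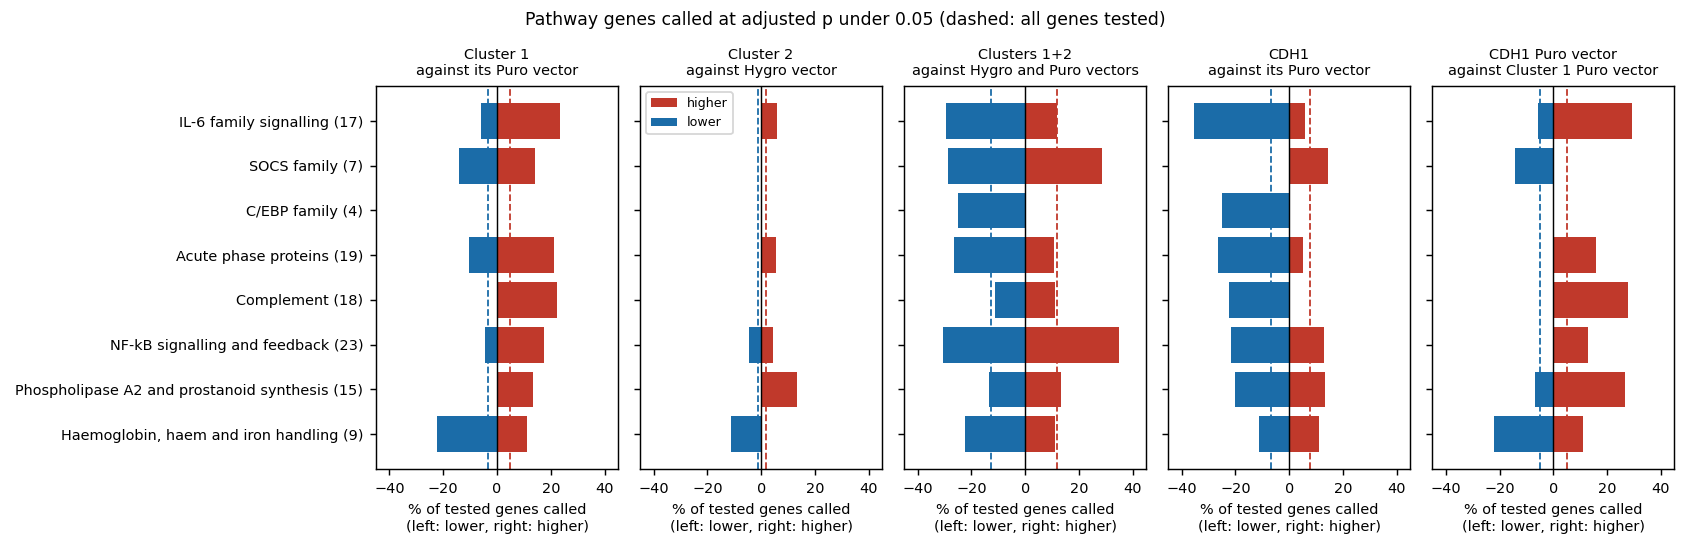
Share of the tested genes of each list (y axis, number tested in Cluster 1 in brackets) that were called higher (red, to the right) or lower (blue, to the left) in 5 comparisons, in percent (x axis), with dashed lines for all genes tested. IL-6 family signalling reaches 41.2% called in CDH1, with 6 of 17 lower, beside 14.5% of all genes.

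Some of these genes follow other cell types, and their markers were read beside them. S100a8, a calprotectin subunit abundant in neutrophils and also made by epithelia, fell in CDH1 by 1.53 (SE 0.108, adjusted p = 2.34e-06) and differed by -2.10 in Clusters 1+2 (adjusted p = 3.01e-08). It was higher by 1.68 in the Puro vector for CDH1 than in the other (adjusted p = 1.62e-06), in the same direction as the 8 genes. S100a9, its partner, was higher there by 1.35 (adjusted p = 1.42e-05) and differed by -0.18 in CDH1 (adjusted p = 0.227). S100a9 was also higher in Cluster 1, by 0.40 (limma adjusted p = 0.0168). In Cluster 2 it was higher by 0.66, where repeat B of Cluster 2 and repeat A of the Hygro vector were the only usable arrays. Of 7 neutrophil markers on the array, Elane, Camp and Csf3r were at background on both arrays of all 8 groups. The other 4 were above background on both arrays of CDH1, of Cluster 1 and of the Puro vector for Cluster 1. In the Puro vector for CDH1, 2 of the 7 were. The summed signal of the neutrophil list was 1154 to 1234 in the Puro vector for CDH1 and 544 to 652 in CDH1.

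Of 9 macrophage and monocyte markers none passed with limma in any comparison, and at most 2 had an unadjusted p under 0.05 in any of the 5. All 9 were above background on both arrays of CDH1, of Cluster 1 and of the Puro vector for Cluster 1. In the Puro vector for CDH1 only 1 was, and Ptprc, Itgam and Tyrobp were at background on both arrays. Repeat B of that vector had the fewest probes above background. The summed signal of the 9 markers was 1401 to 1747 in the Puro vector for CDH1, 1398 to 1489.5 in CDH1, 2638.5 to 2863.5 in Cluster 1 and 2240.5 to 2269 in its vector. Of 6 fibroblast markers 3 fell in CDH1, Pdgfra by 1.07 (adjusted p = 1.21e-05), Dcn by 0.80 (adjusted p = 0.0249) and Lum by 0.74 (adjusted p = 0.015), with a summed signal of 5928 to 6411 in the vector and 4378 to 4697 in CDH1. Pdgfra also fell in Clusters 1+2, by 1.69 (adjusted p = 5.96e-08), and in Cluster 2, by 0.60 (adjusted p = 0.00331). Of 4 tested adipocyte markers, Fabp4 differed by -1.86 in Clusters 1+2 (adjusted p = 2.67e-07). No adipocyte marker was above background on both arrays of that group. Fabp4 was -0.59 in Cluster 2 (adjusted p = 0.0211) and, in CDH1, higher by 0.43 (adjusted p = 0.0326). It was the only one of the 4 called there, and their medians were -0.07, -0.15 and -0.14 in that order. Cfd, another of them, was higher by 0.68 in the Puro vector for CDH1 than in the other (limma adjusted p = 0.00391). Their part in the results for the 8 genes was not tested. Albumin, the defining hepatocyte product, was at background on both arrays of 7 groups.

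Likeness between the 8 genes is given as a description over arrays that share slides, dyes and a reference, after the mean of each dye family was subtracted. Of their 28 pairs, 27 had a positive Pearson r over 16 arrays (15 for pairs with Hp), with a median of 0.62. In the 8 Cy5 arrays all 28 were positive, with a median of 0.77. In the 8 Cy3 arrays 15 were positive, with a median of 0.10. The pair of C3 and Socs3 shows the contrast, with r = -0.95 in Cy3 and 0.34 in Cy5.

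Across the array, the genes with the most similar pattern were sought among 601 or 602. These had a value on every array and group means that spanned at least 1 log2 unit. For Cebpd these were Pdgfrl (r = 0.95), Rab7b (0.92) and Gstm1 (0.92), and for Cebpb Gng2 (0.94), Pdgfa (0.92) and Il10rb (0.92). For C3 they were Ptprk (0.96), Tmem176a (0.95) and Il10rb (0.95), and for Hp Hsd11b1 (0.97), Sparc (0.97) and Igfbp6 (0.95), over 15 arrays. Gstm1 was thus listed for both Cebpd and Lcn2, and Il10rb for both Cebpb and C3.

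For Lcn2 the most similar were Gstm1 (0.91), Glrx (0.91) and Adgre5 (0.89), and for Saa3 Aldoc (0.87), Xist (0.87) and Psmb9 (0.86). For Pla2g5 they were Metrnl (0.96), Anxa8 (0.93) and Ccl2 (0.93), and for Socs3 Vcam1 (0.98), Ppm1l (0.97) and Emp3 (0.97). None of the 8 was among the 3 most similar genes of another. Hp, which lacked a value on an array, and Cebpb, whose group means spanned too little, were not candidates. Neither could therefore be listed.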

How the data were processed

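Expression was measured on 16 two-channel Agilent mouse arrays, read with Feature Extraction 9.5.3.1 per the file headers. From the deposited scanner output, the mean intensity of each channel and its local background were used. The deposited series matrix holds a linear ratio that matched the scanner software's processed ratio turned to sample over reference, where the largest gap was 8.06e-08 (log10) and column medians ran from 0.903 to 1.17, so no further centring was seen. Spots marked as outliers (264 to 1493 per array) were removed, background was corrected by normexp with offset 50, and ratios were normalised by loess within each array. Spots of a probe were averaged, and the brightest probe that passed the filter stands for a gene. One limma model (limma 3.58.1, R 4.3.3) with 8 group means over all 16 arrays gave differences, standard errors and Benjamini-Hochberg adjusted p-values over all genes tested, with 0.05 as threshold. Where a gene was not above background in a group, its fold is a bound: the mean of the bright group against, per array, the higher of the lowest signal among probes above background and the probe's own, in the sample channel after loess and Aquantile. The code was tested on simulated data. The 8 genes and the gene lists were chosen with earlier results of these data known. Pathway genes named come from a selection. It holds, per comparison, up to 6 in each direction with the largest difference among those called whose arrays did not overlap, and a fixed set (Cebpa, Cebpg, Ddit3, Il6st, Il6ra, Stat3, Nfkbia, Nfkbiz, Saa1, Saa2, Cdh1, Krt8, Krt18). Not every gene of this selection is given for every comparison, and some are not given at all. The marker genes given were named for being called in a list, after their values were seen. Alternatives were other background, scaling, filter, probe, block and control choices, and leaving out each array. The number of arrays limits the precision.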

Additional observations from a re-analysis of the deposited data

Results flagged for a closer look

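For 7 of the 8 genes, both arrays of one overexpression group lay above their vector while both arrays of another lay below theirs. None of these differences between comparisons was tested, and the groups of 2 arrays are too small for a check of outlying arrays. Each value is the log2 difference in the first comparison minus that in the second. For Cebpd, Cluster 1 exceeded Cluster 2 by 1.46, Clusters 1+2 by 1.46 and CDH1 by 2.88. For Cebpb, Cluster 1 exceeded CDH1 by 1.22. For C3, the 3 miRNA groups exceeded CDH1, Cluster 1 by 3.74, Cluster 2 by 2.83 and Clusters 1+2 by 3.27. For Hp, Cluster 1 exceeded Clusters 1+2 by 1.60, with 1 array of the latter, and CDH1 by 2.52. For Lcn2, Cluster 1 exceeded Clusters 1+2 by 1.55 and CDH1 by 1.65. For Saa3, Cluster 1 exceeded CDH1 by 1.99. For Pla2g5, Cluster 2 exceeded CDH1 by 2.38 and Clusters 1+2 exceeded it by 2.49. Cluster 1 was labelled with Cy5, and Cluster 2 and Clusters 1+2 with Cy3, so dye cannot be told apart from group where those are set against each other or against CDH1. Beside the values with Cluster 1 or CDH1 stands the choice of Puro vector, with which several of them change.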

How the results depend on the processing

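With the other Puro vector as control, the median difference of the 8 genes was -0.36 in Cluster 1, with Cebpd at -0.68, Cebpb at -0.0045, Hp at -1.63 and Lcn2 at -0.047, and the pathway genes Tfrc at 0.14 (limma adjusted p = 0.475) and Il6st at -0.41 (limma adjusted p = 0.0105) also changed sign. In CDH1, the same change, added after the data were seen, gave a median of -0.35, with Hp at 0.075 and Saa3 at 0.0015, and 10 pathway genes called. The Cluster 2 median was 0.14 with processed signals and 0.074 with median centring, and ran from -0.20 to 0.16 when 1 array was left out (0.00082 without Hygro vector replicate B). Other medians by setting, in the order Cluster 1, CDH1 and Puro vectors, were 0.41, -1.29 and 0.79 with outlier-marked spots kept, 0.53, -1.78 and 1.40 with an offset of 10, 0.62, -1.96 and 1.33 with scaled spread, and 0.62, -1.97 and 1.26 from the sample channel alone. Processed signals gave -2.11 and 1.44, and means over probes -0.99 and 0.87, in CDH1 and between Puro vectors, and median centring 0.62 in Cluster 1. Leaving out 1 array gave 0.39 to 0.56 in Cluster 1, -0.74 to -0.0042 in Clusters 1+2, -1.59 to -1.44 in CDH1 and 1.04 to 1.06 between Puro vectors. Pathway genes called in Cluster 2 numbered 2 with outlier-marked spots kept, with processed signals, with scaled spread and in a fit of its 4 arrays, 3 from the sample channel, 11 with slide as a block and 23 with median centring. Outlier-marked spots kept gave 7 in Cluster 1, 24 in Clusters 1+2, 16 in CDH1 and 3 between Puro vectors, and Clusters 1+2 had 19 with scaled spread and 26 from the sample channel. Leaving out 1 array gave 17 to 24 in Cluster 1, 3 to 10 in Cluster 2, 32 to 40 in Clusters 1+2, 20 to 26 in CDH1 and 15 to 19 between Puro vectors. Cdh1 between the Puro vectors was -0.48 from the sample channel (limma adjusted p = 0.0186). The cause of these changes was not tested. Repeat letters pair no samples in the labels, and deviations of same-letter arrays correlated at -0.0142, 0.276, 0.333, 0.0127 and 0.0594 in the 3 miRNA comparisons, in CDH1 and between the Puro vectors. In that order, with the replicate block 26, 8, 46, 34 and 28 pathway genes were called. Values were then compared over the alternatives, with only the lowest and highest leave-one-out fit of each gene. Of these, 1747 kept their call or moved by less than the repeats' spread, 171 lost the call and 20 gained it. A further 146 moved by more than that spread, and 9 changed sign with a call in either fit. Sign changes without a call in either fit are not among the 9.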
